A study of Mus musculus with 4 samples.

Results

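The genes described here encode 9 proteins of the tight and adherens junctions that seal and hold together the colonic epithelium: Tjp1, Tjp3, Ocln, F11r, Marveld2, Marveld3, Cgn, Cdh1 and Epcam. They were chosen by name, with claudins left out, and each matched 1 row among the 22422 genes measured. The study sequenced RNA of the distal colon from female mice aged 6 weeks after 5 days on 2% dextran sulfate sodium (DSS), a polysaccharide that injures the colonic epithelium. The mice were Elf4fl/fl-Villin-Cre or wild type, with 2 libraries in each group. In the first, Cre driven by the villin promoter, which is active in intestinal epithelium, is meant to delete floxed Elf4, a gene for an ETS transcription factor. The strain label reads C57BL/8 for Elf4fl/fl-Villin-Cre and C57BL/6 for wild type, whereas the design text names C57BL/6 for both. The labels do not say whether the libraries came from separate animals or from pools, nor whether the groups were littermates, so p-values reflect only how far these samples vary, and part of that may be technical. Every mouse was given DSS, and no untreated colon was analysed here.

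Tight junctions close the space between neighbouring epithelial cells. Occludin, tricellulin, MARVELD3, claudins and junctional adhesion molecules span the membrane, and the ZO scaffolds and cingulin tie them to actin and myosin on the inner side. Just below lies the adherens junction, in which E-cadherin binds its like on the next cell and holds catenins inside. EPCAM is an epithelial membrane glycoprotein that steadies claudins at the lateral membrane. In the colon these proteins keep luminal bacteria away from the tissue, and their loss from the membrane is a known feature of DSS colitis.

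Levels are given as normalised reads, the authors' read count per gene divided by 1 scaling factor per library. Depth ranged from 15885028 to 16425954 recovered reads per library. Elf4 stood at 897 and 758 normalised reads in Elf4fl/fl-Villin-Cre colon and at 1588 and 1938 in wild-type colon, and fell by 1.09 on the log2 scale (limma adjusted p = 0.0139). After rescaling to 16 pan-epithelial markers, its log2 fold change was 0.45 and did not pass (limma adjusted p = 0.300). Squamous keratin and adhesion genes, which mark skin-like epithelium of the anal margin, were uneven among libraries. Their 9 measured members summed to 138 and 961 normalised reads in Elf4fl/fl-Villin-Cre colon and to 223 and 6533 in wild-type colon, so that wild type replicate 2 stood apart. Counts for the junction genes and for the lists of their partners and regulators are therefore also given without that library. Elf4, the cell type markers and the rescaling to pan-epithelial markers are given with all 4 libraries only.

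All 9 junction genes had less RNA in Elf4fl/fl-Villin-Cre colon, and 8 of the 9 fell past the test. The largest decreases were in the tricellulin gene Marveld2 and in Marveld3, which stood at 33.3% and 33.6% of their wild-type means. The smallest decrease past the test was in Tjp1, at 62.3% of its wild-type mean. The gene that missed the test was Ocln, for occludin, whose wild-type libraries varied most relative to their mean. The median log2 fold change over the 9 genes was -1.30, beside 0.11 over all 22050 genes tested. The test was limma on log2(normalised reads + 1) with Benjamini-Hochberg adjustment over all genes, and a gene was called at an adjusted p under 0.05. By that rule 8.60% of all genes tested were called lower. Every one of the 9 genes had both Elf4fl/fl-Villin-Cre values below both wild-type values, a pattern that 27.2% of all genes tested showed. All 9 passed the filter on low values, which asked for a mean of at least 1 normalised read. Of the 9 genes, 6 fell by a fold of at least 2, as did 4.73% of all genes tested. With wild type replicate 2 left out, edgeR's quasi-likelihood test on the recovered reads called 5 of the 9 lower, beside 4.41% of all genes it tested, and the median log2 fold change was -1.15. With all 4 libraries edgeR called 8 lower, beside 13.5% of its genes. Limma with library totals called 7 lower, beside 5.34% of all genes, with quantile normalisation 5, beside 5.90%, and with the replicate number as a block 9, beside 11.1%. By limma 6.86% of all genes were called higher, and 0 of the 9 were. Limma called 0 of 22050 genes without any single library (3729 to 6189 at an unadjusted p under 0.05).

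**Figure D1:**
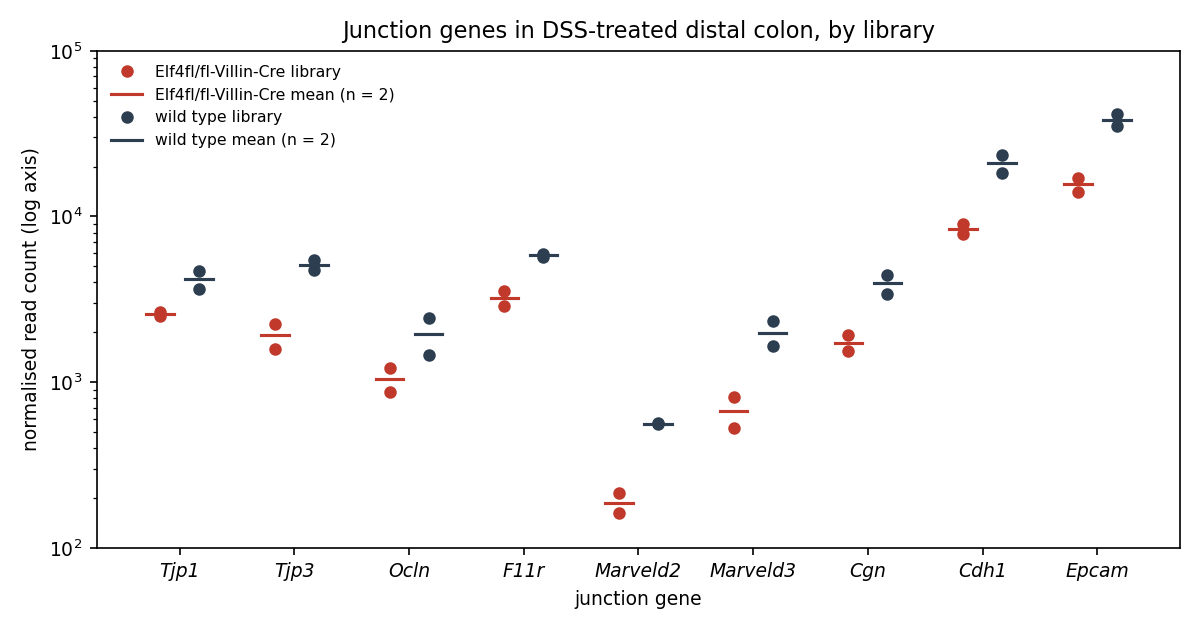
Normalised read counts of the 9 junction genes on a log axis, with 1 point for each library and a bar at the mean of each group (n = 2). In each gene both Elf4fl/fl-Villin-Cre libraries lie below both wild-type libraries, from Marveld2 at 162 and 213 against 561 and 565 to Epcam at 14044 and 17162 against 35252 and 41558.

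The ZO scaffolds and cingulin are the proteins of the cytoplasmic plaque. Tjp1 (ENSMUSG00000030516.14, chromosome 7, 65296165 to 65527781 in mm10, minus strand) encodes ZO-1, which binds claudins and occludin and links them to actin. It had 2669 and 2523 normalised reads in Elf4fl/fl-Villin-Cre colon, against 3632 and 4698 in wild-type colon. The groups did not overlap, and the spread was wider in wild type. The means were 2596 ± 103 in Elf4fl/fl-Villin-Cre and 4165 ± 754 in wild-type colon (SD, n = 2 each). Tjp1 fell by 0.67 ± 0.17 on the log2 scale (SE; limma adjusted p = 0.0456). That call was lost with library totals (limma adjusted p = 0.162) and with quantile normalisation (limma adjusted p = 0.222). With edgeR the call was lost when Elf4fl/fl-Villin-Cre replicate 1, Elf4fl/fl-Villin-Cre replicate 2 or wild type replicate 2 was left out (adjusted p = 0.0751, 0.0856 and 0.121). The RefSeq promoter window of Tjp1 (GRCm38.p6, chr7:65371195-65371494, minus strand) is shown because no other window of the junction genes held the hexamer CGGAAG or CTTCCG. That word is an ETS core with its flank, and cores with other flanks were not searched. The hexamer stands in capitals, 99 bases before the RefSeq start. That start lies inside the annotated span of Tjp1, away from its upstream end at 65527781. Of the 7 junction genes with a window, 1 thus held the hexamer, beside 18.8% of all genes with a window.
Tjp1: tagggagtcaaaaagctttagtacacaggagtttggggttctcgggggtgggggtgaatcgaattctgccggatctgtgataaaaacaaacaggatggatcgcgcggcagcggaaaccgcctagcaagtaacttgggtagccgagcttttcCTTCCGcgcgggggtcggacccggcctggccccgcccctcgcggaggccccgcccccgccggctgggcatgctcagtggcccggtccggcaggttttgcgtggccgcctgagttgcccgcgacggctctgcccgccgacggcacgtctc

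Tjp3 (ENSMUSG00000034917.8, chromosome 10, 81273207 to 81291581, minus strand) encodes ZO-3, the ZO protein most limited to epithelium. It had 1589 and 2253 normalised reads in Elf4fl/fl-Villin-Cre colon, against 4731 and 5482 in wild-type colon. Its fall of 1.43 ± 0.20 on the log2 scale left it at 37.6% of the wild-type mean (SE; limma adjusted p = 0.0127). Its exons share 40 bases with Apba3 on the other strand, and Apba3 had 419 and 473 normalised reads in Elf4fl/fl-Villin-Cre colon and 462 and 466 in wild-type colon. Whether the counting used strand is not given in the sources used here, so reads in those bases cannot be told apart. Within a library, Tjp1 stood above Tjp3 by 0.75 and 0.16 on the log2 scale of normalised reads in Elf4fl/fl-Villin-Cre colon, and below it in wild-type colon, at -0.38 and -0.22.

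Cgn (ENSMUSG00000068876.14, chromosome 3, 94760069 to 94786492, minus strand) encodes cingulin, which joins the ZO proteins to myosin and microtubules. It had 1536 and 1912 normalised reads in Elf4fl/fl-Villin-Cre colon, against 3427 and 4461 in wild-type colon. The groups did not overlap. Cgn fell by 1.19 ± 0.19 on the log2 scale (SE; limma adjusted p = 0.0154). It kept its call in edgeR without any 1 of the 4 libraries, as did Tjp3, Marveld2, Marveld3 and Cdh1.

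Of the membrane proteins of the tight junction, Ocln and the MARVEL genes share a membrane domain, the MARVEL domain. Ocln (ENSMUSG00000021638.12, chromosome 13, 100496507 to 100552718, minus strand) encodes occludin, which binds ZO-1. It had 869 and 1210 normalised reads in Elf4fl/fl-Villin-Cre colon, against 1458 and 2452 in wild-type colon. The groups did not overlap, but the wild-type values lay far apart, and Ocln did not pass the test (log2 fold change -0.88 ± 0.28, SE; limma adjusted p = 0.0884; edgeR adjusted p = 0.0553). DESeq2 called it lower (adjusted p = 0.00773), as it did all 9 genes, beside 15.4% of the genes it tested. With edgeR it passed when Elf4fl/fl-Villin-Cre replicate 2 was left out (adjusted p = 0.0187) or wild type replicate 1 (adjusted p = 0.0251).

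Marveld2 (ENSMUSG00000021636.15, chromosome 13, 100595957 to 100616971, minus strand) encodes tricellulin, which seals the corners where cells meet. It lies 43238 bases from Ocln on the same strand. It had 162 and 213 normalised reads in Elf4fl/fl-Villin-Cre colon, against 561 and 565 in wild-type colon. This was the least abundant of the 9 genes, with 199 and 255 recovered reads in Elf4fl/fl-Villin-Cre and 545 and 536 in wild-type colon, and its wild-type libraries were nearly equal. Marveld2 fell by 1.59 ± 0.18 on the log2 scale (SE; limma adjusted p = 0.00959). Ocln exceeded Marveld2 by 2.42 and 2.50 on the log2 scale of normalised reads in Elf4fl/fl-Villin-Cre colon and by 1.38 and 2.12 in wild-type colon, a difference that was not tested. Marveld3 (ENSMUSG00000001672.14, chromosome 8, 109947914 to 109962203, minus strand) encodes a further MARVEL protein of the tight junction. It had 526 and 810 normalised reads in Elf4fl/fl-Villin-Cre colon, against 1651 and 2323 in wild-type colon, and fell by 1.58 ± 0.26 on the log2 scale (SE; limma adjusted p = 0.0165).

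F11r (ENSMUSG00000038235.4, chromosome 1, 171437535 to 171464603, plus strand) encodes JAM-A, an immunoglobulin-like adhesion protein of epithelium that endothelium, platelets and leukocytes also make. It had 2897 and 3554 normalised reads in Elf4fl/fl-Villin-Cre colon, against 5729 and 5944 in wild-type colon. The groups were well apart, and F11r fell by 0.86 ± 0.15 on the log2 scale (SE; limma adjusted p = 0.0202). The call was lost with quantile normalisation (limma adjusted p = 0.0657). With edgeR it was lost when Elf4fl/fl-Villin-Cre replicate 1 was left out (adjusted p = 0.0647) or wild type replicate 2 (adjusted p = 0.0639). Of 12 endothelial markers in these libraries, 4 rose and 0 fell, and of 10 leukocyte markers 6 rose and 0 fell. Over all genes tested 6.86% rose and 8.60% fell by the same rule. The endothelial markers summed to 6550 and 5683 normalised reads in Elf4fl/fl-Villin-Cre and 4427 and 3269 in wild-type colon, and the leukocyte markers to 19333 and 13106 against 9811 and 6742. Their part in the level of F11r was not tested.

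Cdh1 and Epcam were the most abundant of the 9 genes. Cdh1 (ENSMUSG00000000303.12, chromosome 8, 106603351 to 106670246, plus strand) encodes E-cadherin, the calcium-dependent adhesion protein of the adherens junction. It had 7849 and 8988 normalised reads in Elf4fl/fl-Villin-Cre colon, against 18408 and 23576 in wild-type colon. The means were 8419 ± 805 and 20992 ± 3654 (SD, n = 2 each), and Cdh1 fell by 1.31 ± 0.20 on the log2 scale (SE; limma adjusted p = 0.0141). Epcam (ENSMUSG00000045394.8, chromosome 17, 87635979 to 87651129, plus strand) had 14044 and 17162 normalised reads in Elf4fl/fl-Villin-Cre colon, against 35252 and 41558 in wild-type colon. It fell by 1.30 ± 0.21 on the log2 scale (SE; limma adjusted p = 0.0167). Its call was lost with quantile normalisation (limma adjusted p = 0.0556) and, with edgeR, when wild type replicate 2 was left out (adjusted p = 0.0564). Cdh1 and Epcam kept nearly the same ratio in all 4 libraries. Cdh1 stood below Epcam at -0.84 and -0.93 on the log2 scale of normalised reads in Elf4fl/fl-Villin-Cre colon and at -0.94 and -0.82 in wild-type colon. The RefSeq promoter window of Epcam (GRCm38.p6, chr17:87635729-87636028, plus strand) is shown because it held a pair of E-box hexamers of the kind that Snail and ZEB proteins bind, in capitals, 187 and 19 bases before the start. That of F11r (GRCm38.p6, chr1:171437311-171437610, plus strand) held 1, in capitals, 122 bases before the start. E-box hexamers also stood in windows of Marveld2, Ocln and Tjp3, which are not shown. A window of Ocln held a pair as well, 213 and 68 bases before its start.
Epcam: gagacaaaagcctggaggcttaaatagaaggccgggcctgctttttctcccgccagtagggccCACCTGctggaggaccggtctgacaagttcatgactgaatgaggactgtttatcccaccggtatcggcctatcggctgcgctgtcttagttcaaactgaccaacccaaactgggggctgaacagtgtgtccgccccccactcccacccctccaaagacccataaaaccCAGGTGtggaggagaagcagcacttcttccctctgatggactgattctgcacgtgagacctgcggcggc
F11r: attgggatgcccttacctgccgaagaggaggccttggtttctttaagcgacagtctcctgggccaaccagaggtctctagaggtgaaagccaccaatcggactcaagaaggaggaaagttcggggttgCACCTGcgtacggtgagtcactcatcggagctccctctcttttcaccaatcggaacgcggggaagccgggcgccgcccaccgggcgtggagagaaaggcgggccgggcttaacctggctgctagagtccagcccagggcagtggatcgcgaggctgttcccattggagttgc

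Per length, the order of the 9 genes was led by Epcam, Cdh1, F11r and Tjp3 in both groups. In RPKM, reads per kilobase of exon scaled to the library total, Epcam had 530 ± 55.9 in Elf4fl/fl-Villin-Cre and 1049 ± 116 in wild-type colon (SD, n = 2 each). Cdh1 had 137 ± 8.19 and 275 ± 46.3 on the same scale, and Marveld2, the lowest, had 4.13 ± 0.65 and 9.98 ± 0.0075. The span from Epcam to Marveld2 was 128-fold in Elf4fl/fl-Villin-Cre and 105-fold in wild-type colon. In the middle of the order Cgn, Marveld3, Tjp1 and Ocln lay close together. In wild-type colon they had 39.3 ± 7.06, 36.3 ± 8.47, 32.0 ± 5.61 and 27.7 ± 9.83 RPKM, neighbours that did not differ beyond their spread. In Elf4fl/fl-Villin-Cre colon Tjp1 came first of these at 24.8 ± 1.89, then Cgn at 21.3 ± 2.53, Ocln at 18.3 ± 3.60 and Marveld3 at 15.1 ± 4.02. There too each neighbour lay within the summed SDs of the next.

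**Figure D2:**
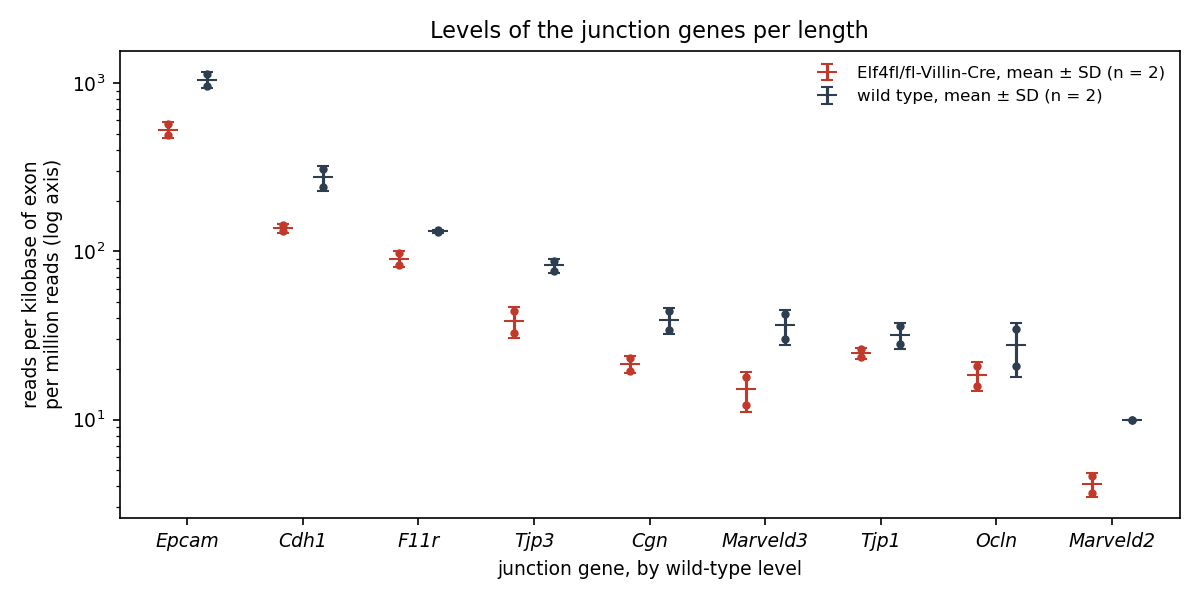
Level of each junction gene as RPKM (reads per kilobase of exon scaled to the library total), on a log axis, with a point for each library and the mean ± SD of each group (n = 2). Epcam stands highest and Marveld2 lowest in both groups, and the group means of the 4 genes from Cgn to Ocln lie between 15.1 and 39.3.

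In bulk tissue, fewer epithelial cells and less junction RNA per epithelial cell cannot be told apart. The general epithelial genes were therefore set beside the junction genes. Of 16 pan-epithelial markers, 15 fell and 0 rose (median log2 fold change -1.43), beside 8.60% and 6.86% of all genes tested. Among them the keratin genes Krt8, Krt18 and Krt19 fell by 2.03, 1.14 and 2.15 (limma adjusted p = 0.0118, 0.0173 and 0.0111). The 16 markers summed to 77489 and 106925 normalised reads in Elf4fl/fl-Villin-Cre colon and to 269150 and 321829 in wild-type colon. All values were then rescaled so that the mean log2 level of these 16 markers was equal in every library. After that, 0 of the 9 junction genes were lower past the test, beside 0.499% of all genes tested. At an unadjusted p under 0.05 by limma, 0 of the 9 were lower, beside 132 of 22050 genes. The rescaling takes the markers' own mean change of -1.54 out of every gene, and the 9 genes had lain between -1.59 and -0.67. These counts were therefore largely set by the scaling, and the SEs were wider on it. The single markers had log2 fold changes from -2.32 to -0.71, so the rescaled values also depend on which markers were chosen. Marveld2, Marveld3 and Tjp3 then had log2 fold changes of -0.05 ± 0.44, -0.04 ± 0.41 and 0.12 ± 0.38 (SE; limma adjusted p = 0.913, 0.928 and 0.785). For Cdh1, Epcam and Cgn the values were 0.23 ± 0.34, 0.24 ± 0.32 and 0.35 ± 0.38 (SE; limma adjusted p = 0.529, 0.493 and 0.396). For Ocln and F11r they were 0.66 ± 0.40 and 0.68 ± 0.37 (SE; limma adjusted p = 0.125 and 0.0848).

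Tjp1 was the exception on the epithelial scale. It rose relative to the markers by 0.87 ± 0.38 on the log2 scale (SE; limma adjusted p = 0.0302), with rescaled values of 5648 and 3475 in Elf4fl/fl-Villin-Cre colon and 2253 and 2598 in wild-type colon. On that scale 71.8% of all genes tested were called higher and the median of all genes tested was 1.56, so a rise there was common. ZO-1 is also made by endothelium and fibroblasts. On the authors' scaling, of 8 fibroblast markers 3 rose and 0 fell, beside 6.86% and 8.60% of all genes tested. The fibroblast markers summed to 76440 and 80756 normalised reads in Elf4fl/fl-Villin-Cre and 47379 and 38544 in wild-type colon. Their part in the level of Tjp1 was not tested. Of the 9 genes, 6 had both rescaled Elf4fl/fl-Villin-Cre values above both wild-type values, beside 85.9% of all genes tested, and for Marveld2, Marveld3 and Cdh1 the groups overlapped.

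**Figure D3:**
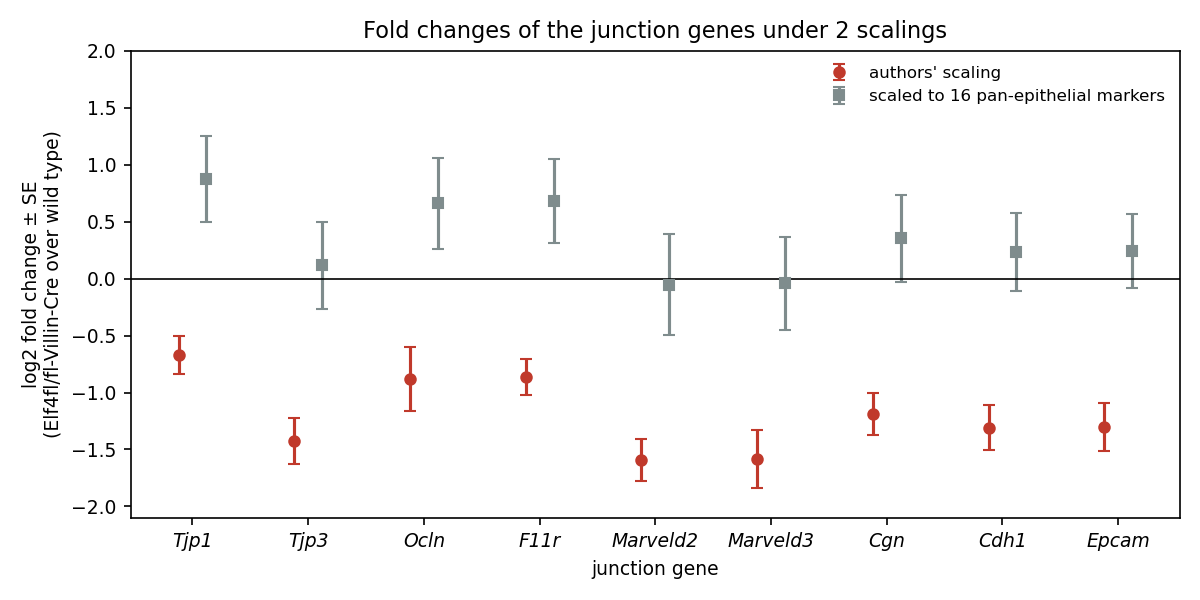
Log2 fold change (Elf4fl/fl-Villin-Cre over wild type, ± SE) of the 9 junction genes on the authors' scaling (circles) and after rescaling to 16 pan-epithelial markers (squares). On the authors' scaling all 9 lie below 0, from -1.59 to -0.67, and after rescaling they lie between -0.05 and 0.87.

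Other genes of the tight junction went both ways. Of 28 genes without claudins, 7 fell and 4 rose, beside 8.60% and 6.86% of all genes tested. The list's median log2 fold change was -0.20. With library totals 6 fell and 8 rose, beside 1178 and 4069 of 22050 genes tested. With median scaling 9 fell and 2 rose, beside 2674 and 1138 of all genes. Ildr1, for an angulin that brings tricellulin to tricellular contacts, had 1494 and 1594 normalised reads in Elf4fl/fl-Villin-Cre colon, against 3450 and 3589 in wild-type colon. It fell by 1.19 ± 0.13 on the log2 scale (SE; limma adjusted p = 0.00942). The polarity genes Crb3 and Patj fell by 0.98 and 1.32 (limma adjusted p = 0.0108 and 0.0177). Jam2, for a junctional adhesion molecule best known from endothelium and stroma, rose. It had 629 and 686 normalised reads in Elf4fl/fl-Villin-Cre colon, against 367 and 338 in wild-type colon (log2 fold change 0.90 ± 0.14, SE; limma adjusted p = 0.0152). With wild type replicate 2 left out, edgeR called 3 genes of this list, all lower, and neither Patj nor Jam2 was among them (adjusted p = 0.0521 and 0.0533).

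Of 17 other adherens junction genes, 11 fell and 0 rose, beside 8.60% and 6.86% of all genes tested. The list's median log2 fold change was -0.88. Plekha7, which ties p120 catenin to microtubules, had 751 and 971 normalised reads in Elf4fl/fl-Villin-Cre colon, against 2198 and 2264 in wild-type colon. It fell by 1.38 ± 0.16 on the log2 scale (SE; limma adjusted p = 0.00969). Jup, for plakoglobin, Nectin2, for an immunoglobulin-like adhesion protein, and Shroom3, an apical constriction gene, fell by 1.23, 0.89 and 1.36 (limma adjusted p = 0.0131, 0.0119 and 0.0141). The count was 6 lower with quantile normalisation, 7 with edgeR when Elf4fl/fl-Villin-Cre replicate 1 was left out and 5 with edgeR when wild type replicate 2 was left out. After rescaling to the epithelial markers, 6 of the 17 were called higher and 0 lower, beside 71.8% and 0.499% of all genes tested.

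Of 20 genes of the actomyosin belt that runs along the junctions, 6 fell and 1 rose, beside 8.60% and 6.86% of all genes tested. The list's median log2 fold change was -0.33. Myh14, for nonmuscle myosin IIC, had 4820 and 6087 normalised reads in Elf4fl/fl-Villin-Cre colon, against 14658 and 18793 in wild-type colon. It fell by 1.62 ± 0.20 on the log2 scale (SE; limma adjusted p = 0.0106). Actn4, for an actin crosslinker, Myl12b, for a myosin light chain, and Cttn, for cortactin, fell by 1.38, 1.41 and 0.99 (limma adjusted p = 0.00973, 0.0089 and 0.015). With wild type replicate 2 left out, edgeR called 4 of the list, and Cttn had an adjusted p of 0.052. Smooth muscle also makes several of these proteins, and of its 8 markers 0 rose and 1 fell, beside 6.86% and 8.60% of all genes tested. The 8 markers summed to 67346 and 99507 normalised reads in Elf4fl/fl-Villin-Cre and 142249 and 109697 in wild-type colon. Their part in this list was not tested.

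Snail, ZEB and Twist proteins are transcription factors known to repress junction genes. Of 9 listed repressor genes, most of them from these families, 5 rose and 0 fell. Their median log2 fold change was 1.03, and 6.86% of all genes tested were called higher. Twist2 had 98.5 and 84.4 normalised reads in Elf4fl/fl-Villin-Cre colon, against 18.5 and 15.8 in wild-type colon, and rose by 2.35 ± 0.30 on the log2 scale (SE; limma adjusted p = 0.0108). Snai2, for Slug, which binds the E-boxes of the Cdh1 promoter, had 351 and 292 normalised reads in Elf4fl/fl-Villin-Cre colon, against 115 and 154 in wild-type colon (log2 fold change 1.26 ± 0.21, SE; limma adjusted p = 0.0178). Zeb1, Zeb2 and Twist1 rose by 0.90, 1.05 and 0.87 (limma adjusted p = 0.0193, 0.0286 and 0.0354). Snai1, for Snail, had 275 and 162 normalised reads in Elf4fl/fl-Villin-Cre colon, against 114 and 92.7 in wild-type colon, and did not pass (limma adjusted p = 0.0662). Klf8 and Tcf3 had log2 fold changes of 1.03 and 0.43 and did not pass (limma adjusted p = 0.116 and 0.174), and Snai3 overlapped between the groups at 11.4 and 23.4 against 12.3 and 39.0.

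The Snail, ZEB and Twist repressors are made mainly by stromal cells and leukocytes in a healthy colon. The fibroblast and leukocyte markers were higher in the same libraries, as given above. Their part in the repressor levels was not tested. With edgeR and no wild type replicate 2, 2 repressors were called, and Zeb1, Zeb2 and Twist1 were not (adjusted p = 0.066, 0.0583 and 0.122). With Elf4fl/fl-Villin-Cre replicate 1 left out, 3 were called, and Zeb2 and Twist1 were not (adjusted p = 0.0573 and 0.118). With wild type replicate 1 left out, Zeb2 was not called (adjusted p = 0.0888). With library totals 8 repressors rose, beside 4069 of 22050 genes tested, and the median log2 fold change of all genes was then 0.40.

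Of 16 genes for epithelial transcription and splicing regulators, 15 fell and 0 rose, beside 8.60% and 6.86% of all genes tested. The list's median log2 fold change was -1.74. Hnf4a, the colonocyte nuclear receptor gene, had 2559 and 3444 normalised reads in Elf4fl/fl-Villin-Cre colon, against 8902 and 11763 in wild-type colon. It fell by 1.78 ± 0.21 on the log2 scale (SE; limma adjusted p = 0.00986). Cdx1, a homeobox gene of intestinal identity, fell by 1.83 and Klf5, a Krüppel-like factor gene of crypt cells, by 2.11 (limma adjusted p = 0.00961 and 0.0138). Elf3, an epithelial relative of Elf4, had 3045 and 4107 normalised reads in Elf4fl/fl-Villin-Cre colon, against 8870 and 10464 in wild-type colon (limma adjusted p = 0.0118). The member that did not pass was Grhl1, at 68.4 and 38.5 normalised reads in Elf4fl/fl-Villin-Cre and 35.0 and 34.8 in wild-type colon, where both Elf4fl/fl-Villin-Cre values lay above both wild-type values. After rescaling to the epithelial markers the median of the list was -0.20, 0 were called lower, and Grhl1 was called higher. On that scale 0.499% of all genes tested were called lower and 71.8% higher. With wild type replicate 2 left out, edgeR called 8 of the 16.

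Promoter windows from RefSeq, 250 bases before to 50 after each start, were found for 7 of the 9 junction genes, in 10 windows. No window was found for Cdh1 or Marveld3. An ETS core with its flank, CGGAAG or its reverse complement CTTCCG, stood in 1 of the 7 genes, Tjp1, shown above, beside 18.8% of the 27025 genes in the table. The E-box CAGGTG or its reverse complement CACCTG stood in 5 of the 7, Epcam, F11r, Marveld2, Ocln and Tjp3, beside 22.6% of all genes in the table. The grainyhead-like word AACCNGGTT, which is its own reverse complement, stood in 0 of the 7, beside 0.315% of all genes. The 3 words were searched on both strands and do not overlap in the windows shown. A match is a word in a sequence and not a measured binding site.

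Genes for proteins that cut, protect or mark junction proteins went both ways. Of 11 measured genes, 3 fell and 2 rose, beside 8.60% and 6.86% of all genes tested. The list's median log2 fold change was -0.11 (Mmp7 was not analysed here). St14, for matriptase, a membrane protease that can cleave EPCAM, had 3486 and 3516 normalised reads in Elf4fl/fl-Villin-Cre colon, against 8169 and 7960 in wild-type colon (log2 fold change -1.20 ± 0.13, SE; limma adjusted p = 0.00942). Its inhibitor gene Spint1 fell by 1.49 ± 0.21 on the log2 scale (SE; limma adjusted p = 0.013). Mmp3, for stromelysin-1, and Mmp9, for gelatinase B, which can cleave E-cadherin and occludin, rose. Mmp3 had 5610 and 15343 normalised reads in Elf4fl/fl-Villin-Cre colon, against 1038 and 565 in wild-type colon, and Mmp9 had 460 and 1291 against 93.6 and 50.6 (limma adjusted p = 0.0125 and 0.0141). With edgeR and no wild type replicate 2 neither passed (adjusted p = 0.0536 and 0.0604). Adam10, whose protease is the main sheddase of E-cadherin, had 2136 and 2137 normalised reads in Elf4fl/fl-Villin-Cre colon, against 2173 and 2612 in wild-type colon, and did not pass (limma adjusted p = 0.495); it is outside the naming rule and was chosen after its values were seen.

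**Figure D4:**
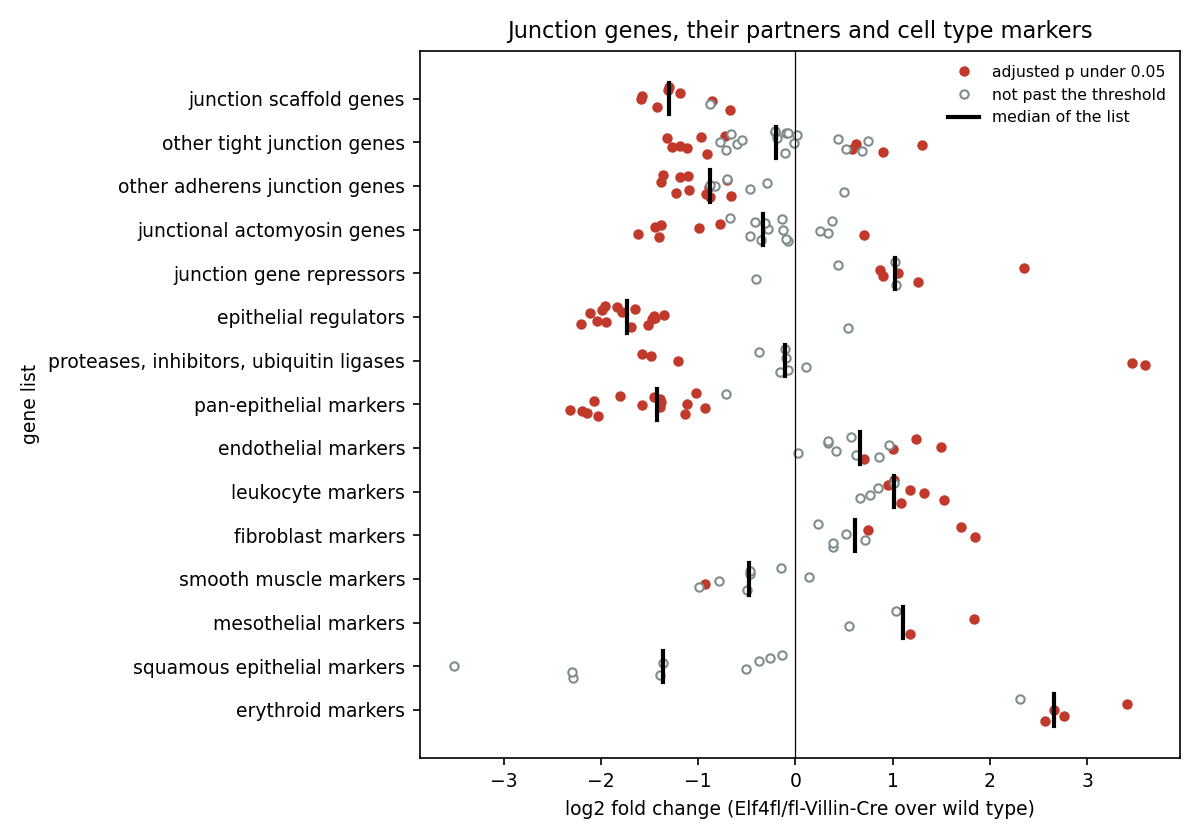
Log2 fold change (Elf4fl/fl-Villin-Cre over wild type) of every measured gene in the junction list, 6 lists of junction partners and regulators, and 8 lists of cell type markers, with the median of each list as a bar. Filled points passed limma at an adjusted p under 0.05. The junction genes have a median of -1.30, the pan-epithelial markers -1.43, the squamous markers -1.37 and the smooth muscle markers -0.48. The repressors have a median of 1.03. The erythroid, mesothelial, leukocyte, endothelial and fibroblast markers have medians of 2.66, 1.10, 1.02, 0.67 and 0.61. Likeness of these medians was not tested.

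The genes whose library values lay nearest to the median profile of the 9 junction genes were sought among 11016 others above the median level. Distance was taken over the 4 libraries on log2 values centred on each gene's mean. Among the 4 nearest were Pls1, Mkrn1 and Itih5, at distances of 0.043, 0.047 and 0.050, beside a median of 1.30 over all candidates. Pls1, for an actin bundler of the microvillus, had 2436 and 2936 normalised reads in Elf4fl/fl-Villin-Cre colon, against 5581 and 7163 in wild-type colon. Among the 9 genes themselves Cgn, Epcam and Cdh1 lay closest to their common profile, at 0.078, 0.089 and 0.10, and Tjp1 lay farthest, at 0.63.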

How the data were processed

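RNA of distal colon from 2 Elf4fl/fl-Villin-Cre and 2 wild-type libraries was analysed, grouped by the genotype label. The deposited table holds a normalised signal per gene, not raw counts. Every deposited value was a whole multiple of 1 step per library (100% of values, tolerance 0.01), so it is a read count divided by 1 factor per library. One read was worth 0.814 and 0.836 in Elf4fl/fl-Villin-Cre and 1.03 and 1.05 in wild-type libraries. Per the submitters' processing notes, mm10 was the build. Aligner, counter and strandedness were not given in the sources used here.

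Gene symbols came from GENCODE mouse release 21, which matched 22358 of 22422 identifiers. Limma (3.58.1, R 4.3.3) was fitted to log2(value + 1) with a variance trend and genotype as the only term, on 22050 genes with a mean of at least 1. Fold changes are on that scale, which understates changes of low genes. edgeR (4.0.16, quasi-likelihood, TMM) and DESeq2 (1.42.0) on recovered reads were alternatives. edgeR called 4054 of 17337 genes. Levels per length used the union of annotated exons. Members had 199 to 39440 reads per library, and error from counting is part of the fitted spread.

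Members and lists were chosen with earlier results of these data known. Named genes were the 9 members, Elf4, all repressors, up to 4 genes past the threshold by smallest p in each other list, and the 4 genes of nearest profile, of which 1 is not reported here. Others named for a count or a comparison, such as Grhl1, Apba3 and the keratins, were chosen after their values were seen. The tests were also run on simulated data with known changes. That simulation gave every gene the same spread setting and held no shift in cell makeup, so nothing is drawn from it here.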

Additional observations from a re-analysis of the deposited data

How the results depend on the processing

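Under every pseudocount, filter and test that kept the authors' scaling or applied median scaling, library totals or quantile normalisation, all 9 junction genes had a negative log2 fold change. Their median was -1.30, and it was -0.99 with library totals, -0.86 with quantile normalisation and 0.24 with pan-epithelial scaling. Leaving out 1 library in limma or edgeR gave medians of -1.46 to -1.13. The count of junction genes called was 5 with quantile normalisation, 1 (higher) with pan-epithelial scaling, 0 of 22050 genes with no variance trend (8 junction genes and 6088 of all genes at an unadjusted p under 0.05), and 0 to 9 without 1 library. The 0 came from limma, whose fits then have 1 residual degree of freedom (7 to 9 junction genes at an unadjusted p under 0.05), and edgeR gave 5 to 9.

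Over all genes the count was 3409 (1512 higher, 1897 lower), 5247 with library totals (4069 higher, 1178 lower), 15947 with pan-epithelial scaling (15837 higher, 110 lower), 0 with no variance trend and 0 to 3754 without 1 library (edgeR gave 2142 with Elf4fl/fl-Villin-Cre replicate 1 left out and 1285 with wild type replicate 2 left out). Median scaling gave 1138 higher and 2674 lower. The median of all genes tested was 0.11, and it was 0.40 with library totals, -0.04 with median scaling and 1.56 with pan-epithelial scaling. With pan-epithelial scaling the counts called were 19 other tight junction, 6 other adherens junction, 13 actomyosin, 8 repressor, 1 epithelial regulator and 8 protease and ligase genes, all higher. With no variance trend each of these lists had 0 (15, 12, 9, 7, 15 and 5 at an unadjusted p under 0.05, in the same order). Quantile normalisation gave 6 adherens junction genes, and library totals 8 repressors. Without 1 library the counts ran from 0 to 13 for other tight junction genes, 0 to 11 for adherens junction, 0 to 7 for actomyosin, 0 to 6 for repressors, 0 to 14 for epithelial regulators and 0 to 6 for proteases and ligases, 0 in each limma fit (9 to 18, 8 to 13, 7 to 9, 4 to 6, 14 to 15 and 5 to 6 at an unadjusted p under 0.05). With wild type replicate 2 left out edgeR called 3 tight junction, 5 adherens junction, 4 actomyosin, 2 repressor, 8 regulator and 2 protease and ligase genes, and with Elf4fl/fl-Villin-Cre replicate 1 left out 7 adherens junction genes and 3 repressors. The cause of these changes was not tested, except that pan-epithelial scaling adds about 1.54 to each log2 fold change by construction.

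Genes that turned positive with pan-epithelial scaling were Tjp1 (0.87), Tjp3 (0.12), Ocln (0.66), F11r (0.68), Cgn (0.35), Cdh1 (0.23), Epcam (0.24), Elf4 (0.45), Ildr1 (0.35), Crb3 (0.57), Patj (0.22), Plekha7 (0.16), Nectin2 (0.65), Jup (0.31), Shroom3 (0.18), Myl12b (0.14), Actn4 (0.16), Cttn (0.55), Snai3 (1.05), Elf3 (0.10), St14 (0.34), Spint1 (0.056), Pls1 (0.30), Mkrn1 (0.32) and Itih5 (0.28). Snai3 also turned positive without 1 library, at 0.080 (limma, without Elf4fl/fl-Villin-Cre replicate 1), 0.38 (limma, without wild type replicate 2) and 0.46 (edgeR, without wild type replicate 2). The labels do not say that same-numbered libraries are paired, and their deviations from the group means correlated at 0.10 across genes and at 0.28 across genes above the median level. Replicate 2 stood above replicate 1 for 8 of 9 junction genes in Elf4fl/fl-Villin-Cre and for 9 of 9 in wild-type colon. The share of all genes with that order was not computed. In Elf4fl/fl-Villin-Cre colon 16 of 16 pan-epithelial markers were also higher in replicate 2. The pan-epithelial scaling factors of replicates 1 and 2 were 0.473 and 0.726 in Elf4fl/fl-Villin-Cre and 1.61 and 1.81 in wild-type colon. With the replicate number as a block, limma called 9 junction genes, with Ocln at an adjusted p of 0.00609, and 4511 genes in all, while the median stayed at -1.30. The block gave 16 other tight junction, 13 adherens junction, 7 actomyosin, 6 repressor, 15 regulator and 5 protease and ligase genes. Whether Ocln was called thus depended on the model.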

Other observations

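Ratios within families were also read. The pairs below were chosen after their values were seen, and the ratios were not tested. JAM-A, from F11r, and JAM-B, from Jam2, are members of 1 family. F11r stood above Jam2 by 2.20 and 2.37 on the log2 scale of normalised reads in Elf4fl/fl-Villin-Cre colon and by 3.96 and 4.13 in wild-type colon. Cgn exceeded its relative Cgnl1, for paracingulin, by 0.07 and 0.14 in Elf4fl/fl-Villin-Cre colon and by 0.98 and 1.40 in wild-type colon, while Cgnl1 itself stood at 1462 and 1732 normalised reads against 1735 and 1688. Ildr1 exceeded Ildr2, another angulin gene, by 2.56 and 2.04 in Elf4fl/fl-Villin-Cre colon and by 4.69 and 4.90 in wild-type colon. Myh14 exceeded Myh10, for nonmuscle myosin IIB, by 2.44 and 2.99 in Elf4fl/fl-Villin-Cre colon and by 4.81 and 5.26 in wild-type colon. In each pair both Elf4fl/fl-Villin-Cre ratios lay below both wild-type ratios. The second gene of 3 of these pairs, Jam2, Ildr2 and Myh10, rose (limma adjusted p = 0.0152, 0.0221 and 0.0264).

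Cdh1 stood below Ctnnb1, for beta-catenin, at -0.31 and -0.17 on the log2 scale of normalised reads in Elf4fl/fl-Villin-Cre colon, and above it in wild-type colon, at 0.33 and 0.48. Beta-catenin is made by nearly all cells, while E-cadherin is mainly epithelial, and the part of cell makeup in this ratio was not tested. Of 5 erythroid markers 4 rose and 0 fell, and of 4 mesothelial markers 2 rose and 0 fell, in the same libraries. Over all genes tested 6.86% rose and 8.60% fell by the same rule. The erythroid markers summed to 2419 and 2807 normalised reads in Elf4fl/fl-Villin-Cre and 244 and 693 in wild-type colon, and the mesothelial markers to 1395 and 2180 against 866 and 827.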
